A study of Homo sapiens with 6 samples.

Results

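The hemidesmosome and laminin-332 genes *COL17A1*, *ITGA6*, *ITGB4*, *DST*, *PLEC*, *LAMA3* and *LAMB3* were taken by symbol from the gene table of an RNA-sequencing experiment in SCC90 cells. These are 7 of the 40488 genes in the table, and all 7 were among the 17257 genes with enough reads to be tested. SCC90 is an established HPV-positive cell line of oropharyngeal squamous cell carcinoma, so every value below comes from 1 line. The siDNp63 group (3 libraries) received an siRNA against ΔNp63, the N-terminally truncated form of the transcription factor p63, and the siCTRL group (3 libraries) received a scrambled siRNA. Both were transfected with Lipofectamine RNAiMAX, at 10 nM according to the labels (the study's methods give another concentration), and RNA was taken after 72 h. Poly(A) RNA was sequenced with a stranded kit, and each library held between 35716277 and 52598831 expected counts. The experiment asks which genes of these carcinoma cells depend on ΔNp63. The labels do not say that the replicates were separate cultures, so p-values here measure the spread between libraries, which may be technical.

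Hemidesmosomes are the junctions that anchor basal cells of skin and mucosa to the basement membrane. Integrin α6β4 and type XVII collagen cross the plasma membrane and bind laminin-332 outside the cell, while the plakins plectin and BP230 tie them to keratin filaments inside. Laminin-332 is a trimer that contains the α3 and β3 chains, and p63 is the lineage transcription factor of basal keratinocytes, in which this machinery is made.

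The siRNA strand that the labels list as antisense (acctggaaaacaatgcccaga) occurred as written in 8 of 14 annotated *TP63* transcripts. It thus reads in the same direction as the RNA, and its reverse complement occurred in 0 of 252835 annotated transcripts. The strand listed as antisense occurred in 0 of 111 transcripts of the hemidesmosome and laminin-332 genes in either direction. The strand listed as sense occurred in 0 of 252835 annotated transcripts in either direction. The 2 listed strands are not complementary to each other, so the labels do not settle which sequence was used for the knockdown. RefSeq promoter windows (GRCh38.p14, 300 bases across the start site) were searched for 5 of the 7 genes, with *ITGB4* and *PLEC* left out. Printed here, 5′ to 3′ on the gene's own strand, are the windows of *COL17A1* and of the *DST* start site with the short transcripts (the longest of them 8971 bases), 2 genes that fell. Also printed is the window of *LAMA3*, which did not pass the test. It lies at a start site of short *LAMA3* transcripts (the longest of them 5618 bases). The start of the canonical *LAMA3* transcript (10651 bases) had no window and was not searched. Capitals mark the base at the start site and each match to the AP-1 motif TGANTCA.
COL17A1, chr10:104085831-104086130, minus strand: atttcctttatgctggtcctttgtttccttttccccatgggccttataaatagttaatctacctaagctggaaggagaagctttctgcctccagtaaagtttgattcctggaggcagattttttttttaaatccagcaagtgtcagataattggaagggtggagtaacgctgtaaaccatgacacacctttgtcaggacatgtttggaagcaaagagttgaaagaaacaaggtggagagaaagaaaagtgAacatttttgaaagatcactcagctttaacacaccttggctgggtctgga
DST, chr6:56642840-56643139, minus strand: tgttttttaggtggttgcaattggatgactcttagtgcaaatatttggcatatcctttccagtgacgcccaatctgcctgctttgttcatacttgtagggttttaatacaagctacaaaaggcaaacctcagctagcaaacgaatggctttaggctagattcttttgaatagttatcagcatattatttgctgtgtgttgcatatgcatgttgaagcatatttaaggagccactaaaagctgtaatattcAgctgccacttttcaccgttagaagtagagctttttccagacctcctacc
LAMA3, chr18:23872770-23873069, plus strand: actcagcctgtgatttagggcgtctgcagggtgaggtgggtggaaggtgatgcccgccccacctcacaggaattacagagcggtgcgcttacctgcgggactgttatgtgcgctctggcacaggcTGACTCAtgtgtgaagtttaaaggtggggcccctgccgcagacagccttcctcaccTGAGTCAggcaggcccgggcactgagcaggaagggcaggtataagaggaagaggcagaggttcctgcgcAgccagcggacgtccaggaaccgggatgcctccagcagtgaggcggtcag
A p63 core pair was searched for on both strands as the word CNNG with A or T at both middle bases, then 6 bases of any kind, then such a word again. It was found in 0 of the 10 windows of these 5 genes, and in 4.79% of 35116 promoter windows. The AP-1 motif was found in 7.71% of all windows. The *LAMA3* window held 2 matches, at 125 and 69 bases before the start site, and the *COL17A1* and short *DST* windows held none. Among the windows not printed, that of the *DST* start site with the 24709-base transcript held 1 match, at position 26 with the start site as 1. A *LAMB3* window held 1 match, at 67 bases before its start site. A match was thus also present in a gene that fell, and matches were not tested against the fold changes. No match says only that these letters are not in these windows.

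*TP63*, the gene targeted, was measured first. Its TMM-normalized counts (counts scaled between libraries by edgeR's trimmed mean of M-values) were 15365, 14329 and 15261 in siDNp63, against 41897, 43763 and 43264 in siCTRL. All 3 siDNp63 libraries were below all 3 siCTRL libraries, with a log2 fold change of −1.52 (SE, the standard error, 0.04, edgeR adjusted p = 7.59e-07). Replicate 1 of siDNp63 differed from its fellow replicates 2 and 3, at 44.8 on the second principal component of all tested genes (21.2% of the variance), against −29.5 and −32.8. Genes with a high share of G and C bases were low in it. In the top 20% of genes by GC content, the median difference of replicate 1 from the mean of replicates 2 and 3 was −0.29 on the log2 scale, and in the bottom 20% it was 0.12 (16026 genes).

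*ITGB4* (62.8% GC), *PLEC* (66.6%) and *LAMB3* (59.3%) lie in that top 20% of GC content, and these were the members furthest below the other siDNp63 libraries in replicate 1. Their log2 differences from the mean of replicates 2 and 3 were −0.71 for *ITGB4*, −0.67 for *PLEC* and −0.41 for *LAMB3*. *COL17A1* (52.0% GC), in the middle bin of GC content, was also lowest in replicate 1 and differed by −0.20, *LAMA3* (46.1%) by 0.00, *ITGA6* (42.3%) by 0.12 and *DST* (41.7%) by 0.20. The middle 90% of all tested genes lay between −0.75 and 0.60. Results that rest on this library are therefore given with and without it.

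**Figure D1:**
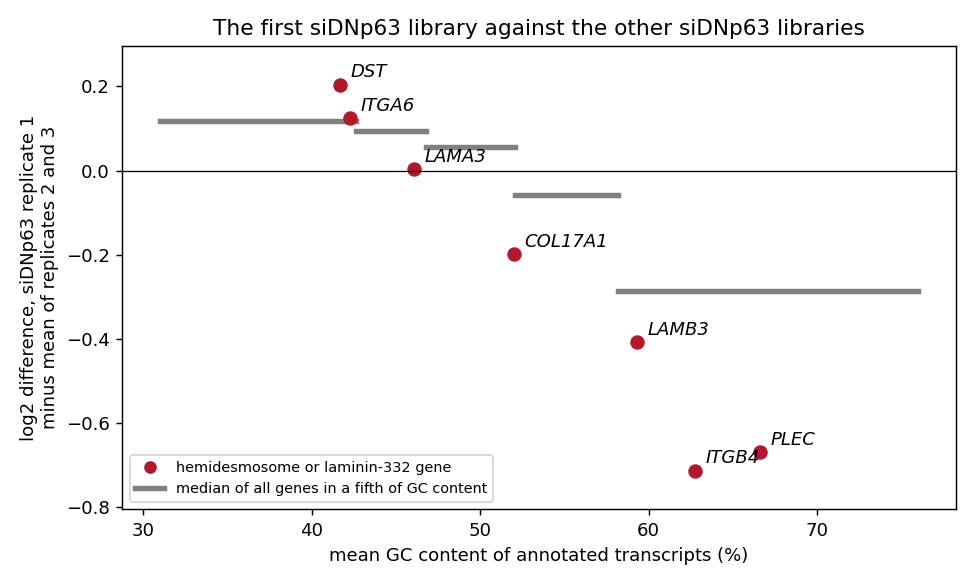
Each red point is a hemidesmosome or laminin-332 gene, placed by the mean GC content of its annotated transcripts (%, horizontal axis) and by the log2 difference of siDNp63 replicate 1 from the mean of siDNp63 replicates 2 and 3 (vertical axis), and each grey bar is the median of all genes in 1 of 5 equal bins of GC content. *ITGB4*, *PLEC* and *LAMB3* sit at −0.71, −0.67 and −0.41, below the grey median of −0.29 for their bin.

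Silencing of ΔNp63 was accompanied by less RNA of *COL17A1*, *ITGB4* and *DST* and by slightly more of *ITGA6*. *COL17A1* fell furthest, to 12257 ± 1004 normalized counts in siDNp63 against 30804 ± 140 in siCTRL (SD, n = 3 each), 2.51-fold lower in siDNp63. *LAMA3*, *LAMB3* and *PLEC* did not pass the test. At an edgeR adjusted p under 0.05 (Benjamini-Hochberg over 17257 genes), 4 of the 7 genes passed, against 33.6% of all genes tested. Of these, 3 were lower (15.2% of all genes) and 1 was higher (18.4%). With the further requirement of an absolute log2 fold change over 1, 1 of 7 passed, *COL17A1*, against 4.06% of all genes. It was lower, as were 1.71% of all genes, and 0 members were higher, against 2.35% of all genes. Without siDNp63 replicate 1, 3 members were lower and 2 higher (*ITGA6* and *LAMB3*), against 17.9% of 17804 genes lower and 20.5% higher in that fit. The median log2 fold change was −0.09 over the 7 genes and −0.02 over all genes tested. The split depends on scaling: with library size alone 4 members were lower and 0 higher (23.9% and 13.5% of all genes), and on log2(TPM + 0.1) 3 were lower and 0 higher (13.2% and 9.72% of all genes). Over all genes, 54.7% of calls were higher with TMM, 36.1% with library size alone, and 42.3% on log2(TPM + 0.1). In RNA from a whole culture, fewer cells of a type and less RNA per cell cannot be told apart.

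**Figure D2:**
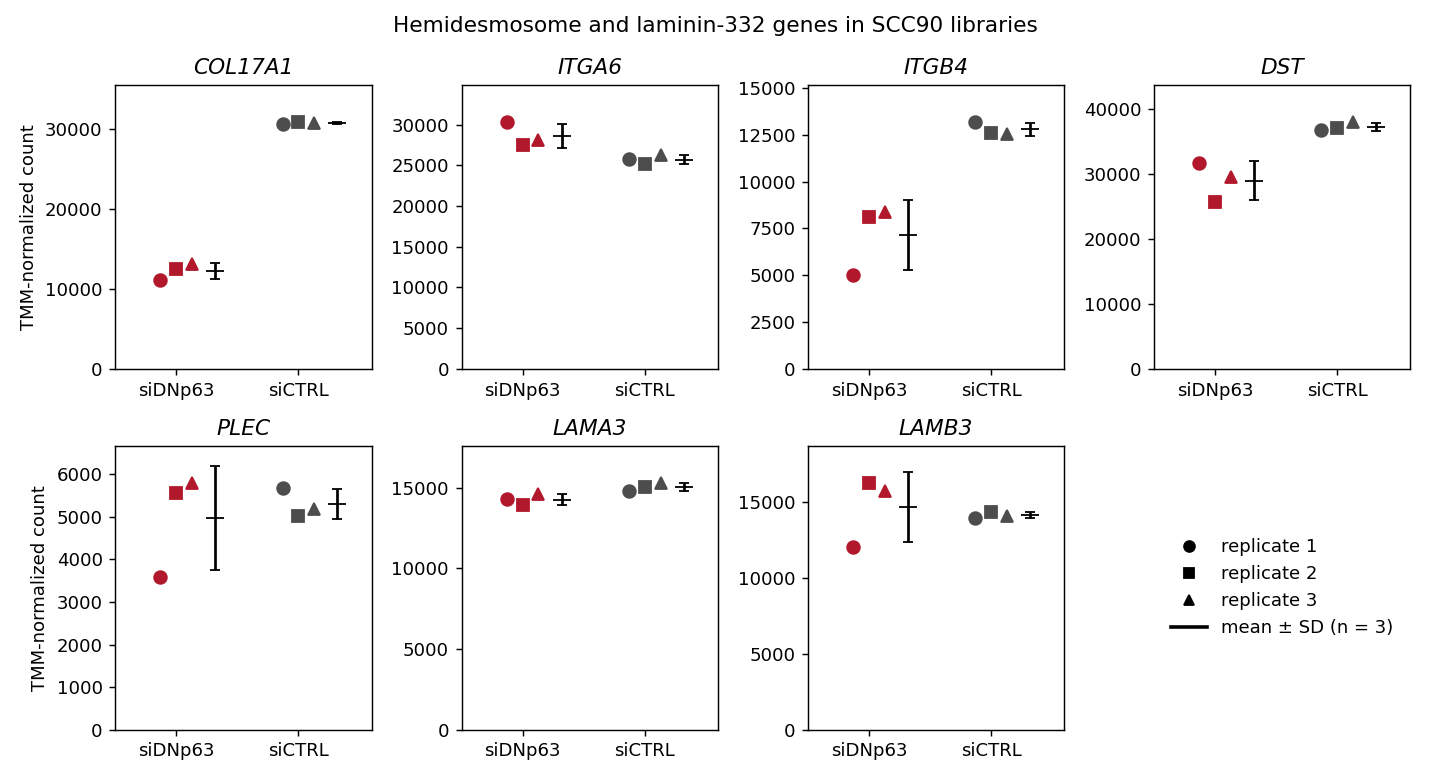
TMM-normalized counts (vertical axis, from 0 in every panel) of the 7 genes in each siDNp63 library (red, left) and siCTRL library (grey, right). Marker shape gives the replicate and black bars the mean ± SD (n = 3). The groups do not overlap for *COL17A1*, *ITGA6*, *ITGB4*, *DST* and *LAMA3*, and they overlap for *PLEC* and *LAMB3*.

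*COL17A1* (ENSG00000065618, chr10:104031286-104085880, minus strand, 56 exons in the canonical transcript, GRCh38) encodes type XVII collagen, the transmembrane collagen also known as BP180. It had 11158, 12486 and 13126 normalized counts in the siDNp63 libraries, against 30653, 30928 and 30831 in the siCTRL libraries. The siCTRL libraries lay close together, and the siDNp63 libraries were all far below them, with no overlap. The log2 fold change was −1.33 (SE 0.06, 95% interval −1.47 to −1.19, edgeR adjusted p = 4.45e-06). It was −1.26 without siDNp63 replicate 1. In TPM, a level scaled for transcript length and library size, *COL17A1* stood at 152, 132 and 143 in siDNp63 and at 340, 348 and 330 in siCTRL. It ranked at the 92.9th percentile of tested genes by mean TPM in siDNp63 and at the 97.5th in siCTRL.

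*ITGB4* (ENSG00000132470, chr17:75721328-75757818, plus strand, 40 exons) encodes the β4 integrin chain, whose long cytoplasmic tail binds plectin. It had 5024, 8084 and 8383 normalized counts in siDNp63, against 13176, 12605 and 12557 in siCTRL. All 3 siDNp63 libraries were below siCTRL, and replicate 1 was the lowest by a wide margin. The log2 fold change was −0.83 (SE 0.17, 95% interval −1.23 to −0.44, edgeR adjusted p = 0.00684). Without siDNp63 replicate 1 it was −0.63 (adjusted p = 2.38e-05 from edgeR), and with offsets for GC content it was −0.76 (edgeR adjusted p = 0.000328). The gene was therefore lower in siDNp63 in each of these fits, and the size depended on the library.

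*ITGA6* (ENSG00000091409, chr2:172427354-172506459, plus strand, 26 exons) encodes the α6 chain that pairs with β4, and can also pair with the β1 chain. It had 30320.2, 27512 and 28137 normalized counts in siDNp63, against 25716, 25144 and 26216 in siCTRL. The siDNp63 libraries were all above siCTRL by a small margin. The log2 fold change was 0.16 (SE 0.04, 95% interval 0.05 to 0.26, edgeR adjusted p = 0.0273), and 0.12 without siDNp63 replicate 1. This call depended on the processing, since the value was 0.07 with library size alone (edgeR adjusted p = 0.185) and 0.07 on log2(TPM + 0.1) (limma adjusted p = 0.273). It also lost significance without siDNp63 replicate 3 (0.17, edgeR adjusted p = 0.0528), without siCTRL replicate 1 (0.15, 0.0583) and without siCTRL replicate 2 (0.14, 0.0785). The 2 chains of the α6β4 integrin therefore had fold changes of opposite sign, and in TPM their ratio was compared within libraries below.

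*DST* (ENSG00000151914, chr6:56457987-56954830, minus strand, 104 exons) encodes dystonin. Its epithelial form is BP230, the plakin that binds keratin filaments, and other forms serve neurons and muscle. It had 31766, 25774 and 29494 normalized counts in siDNp63, against 36804, 37052 and 38044 in siCTRL. Every siDNp63 library was below every siCTRL library, and replicate 1 was here the highest of the siDNp63 libraries. The log2 fold change was −0.36 (SE 0.07, 95% interval −0.53 to −0.20, edgeR adjusted p = 0.00546), and −0.43 without siDNp63 replicate 1. On log2(TPM + 0.1) it was −0.56 (limma adjusted p = 0.000701). *DST* transcripts run up to 24709 bases with 20 protein-coding forms, and counts per TPM relative to the library median, a measure of the mean transcript length that kallisto assigned, were 5.13, 4.54 and 4.97 in siDNp63, against 4.56, 4.43 and 4.41 in siCTRL. The gene-level counts do not tell the epithelial form from the others.

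*PLEC* (ENSG00000178209, chr8:143915153-143976734, minus strand, 32 exons) encodes plectin, the plakin that links β4 integrin to keratins. It had 3574, 5560.4 and 5800.05 normalized counts in siDNp63, against 5680.3, 5009 and 5194 in siCTRL. Replicate 1 of siDNp63 was the lowest of the 6 libraries and replicate 3 the highest, so the groups overlapped. The log2 fold change was −0.09 (SE 0.16, 95% interval −0.46 to 0.29, edgeR adjusted p = 0.722), and 0.10 without siDNp63 replicate 1 (edgeR adjusted p = 0.195). The sign was also positive with offsets for transcript length (0.04) or GC content (0.02). In TPM replicate 1 was not the low library: *PLEC* stood at 70.9, 70.4 and 81.7 in siDNp63 and at 75.7, 75.5 and 74.5 in siCTRL. Counts per TPM relative to the library median were 0.923 for *PLEC* in siDNp63 replicate 1, against 1.41 and 1.30 in replicates 2 and 3.

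**Figure D3:**
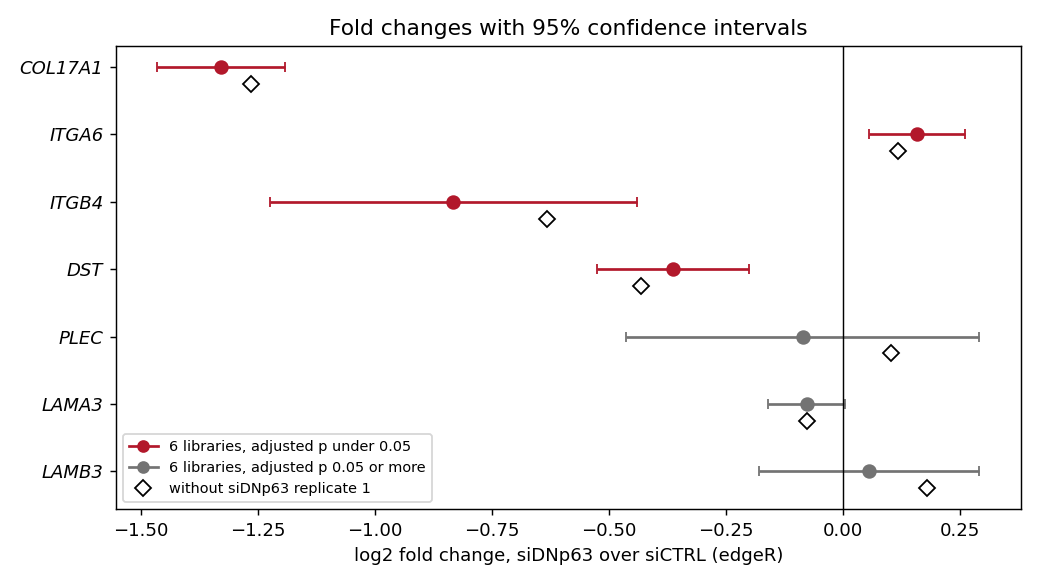
Log2 fold change of siDNp63 over siCTRL (horizontal axis, edgeR) for the 7 genes, with 95% confidence intervals from all 6 libraries. Red marks an adjusted p under 0.05, grey the rest, and open diamonds the value without siDNp63 replicate 1. *COL17A1* is at −1.33, *ITGB4* moves to −0.63 and *PLEC* to 0.10 without that library.

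Neither *LAMA3* nor *LAMB3*, which encode chains of the ligand, passed the test with all 6 libraries. *LAMA3* (ENSG00000053747, chr18:23689453-23956222, plus strand, 75 exons) encodes the α3 chain, which carries the integrin-binding globular domains. It had 14268, 13922 and 14569 normalized counts in siDNp63, against 14769.7, 15053 and 15297 in siCTRL. The siDNp63 libraries were all just below siCTRL, with a log2 fold change of −0.08 (SE 0.04, 95% interval −0.16 to 0.00, edgeR adjusted p = 0.135). It passed the test with library size alone (−0.16, edgeR adjusted p = 0.00599) and with offsets for GC content (−0.10, edgeR adjusted p = 0.0433).

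*LAMB3* (ENSG00000196878, chr1:209614870-209652425, minus strand, 23 exons) encodes the β3 chain. It had 12065, 16287 and 15724 normalized counts in siDNp63, against 13956, 14376 and 14097 in siCTRL. Replicate 1 of siDNp63 was below all siCTRL libraries and replicates 2 and 3 were above them. The log2 fold change was 0.06 (SE 0.10, 95% interval −0.18 to 0.29, edgeR adjusted p = 0.714). It was 0.18 without siDNp63 replicate 1, which passed the test (edgeR adjusted p = 0.00410), and −0.03 with library size alone.

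Normalized counts did not overlap between the groups for 5 of the 7 members, 4 lower and 1 higher, and this was so for 49.4% of all genes tested (24.7% lower and 24.7% higher). The intervals for *LAMA3*, *LAMB3* and *PLEC* limit what may have been missed. They reach down to −0.16, −0.18 and −0.46 on the log2 scale, in each case nearer to 0 than the interval for *COL17A1*. The interval for *PLEC* holds the value of *DST* (−0.36) and overlaps the interval for *ITGB4* (−1.23 to −0.44). A fall of the size seen in *DST* may therefore have been missed for *PLEC*. Upwards the intervals reach 0.00 for *LAMA3*, 0.29 for *LAMB3* and 0.29 for *PLEC*, so a modest rise of *LAMB3* or *PLEC* may also have been missed.

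Levels per length were compared across the 7 genes in TPM. In siDNp63 the mean TPM ran in the order *LAMB3* (257), *ITGA6* (209), *COL17A1* (142), *ITGB4* (121), *DST* (108), *LAMA3* (96.3) and *PLEC* (74.3). From *COL17A1* down to *LAMA3* the libraries of each gene overlapped those of the next. In siCTRL the order was *COL17A1* (339), *LAMB3* (253), *ITGB4* (220.4), *ITGA6* (199), *DST* (159), *LAMA3* (106) and *PLEC* (75.2), with no overlap between neighbours. *COL17A1* thus stood above the other 6 genes in the siCTRL libraries, and *LAMB3* in the siDNp63 libraries. A TPM value rests on how kallisto divided a gene's reads among its transcripts, and *ITGB4*, whose canonical transcript has 5896 bases, was assigned a relative length of 1.03 to 1.12 in siDNp63 and 1.08 to 1.15 in siCTRL. *COL17A1*, with 5612 bases, was assigned 1.34 to 1.69 in siDNp63 and 1.69 to 1.75 in siCTRL.

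Ratios between partner genes were taken within each library, so that scaling between libraries drops out. The TPM ratio of *ITGA6* to *ITGB4*, the integrin pair, was 2.56, 1.50 and 1.47 in siDNp63, against 0.915, 0.886 and 0.910 in siCTRL. All siDNp63 libraries were above all siCTRL libraries, and the geometric means of 1.78 in siDNp63 and 0.904 in siCTRL differed by 0.98 on the log2 scale (exact two-sided permutation p = 0.1, adjusted p = 0.2 over 4 ratios). The smallest p that 3 against 3 libraries allow is 0.1, so no ratio could pass a threshold of 0.05. Without siDNp63 replicate 1 the difference was 0.72. The ratio of *DST* to *PLEC*, the plakin pair, was 1.60, 1.44 and 1.33 in siDNp63, against 2.04, 2.11 and 2.172 in siCTRL. All siDNp63 libraries were below siCTRL (log2 difference −0.54, exact permutation p = 0.1, adjusted p = 0.2), but on normalized counts in place of TPM the difference was −0.25, with overlap.

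The ratio of *LAMA3* to *LAMB3*, the laminin pair, was 0.398, 0.347 and 0.385 in siDNp63, against 0.428, 0.397 and 0.434 in siCTRL. The groups overlapped by a narrow margin (log2 difference −0.16, exact permutation p = 0.2, adjusted p = 0.267). On normalized counts in place of TPM, siDNp63 replicate 1 lay above all siCTRL libraries and replicates 2 and 3 below them. The ratio of *COL17A1* to *ITGB4*, the collagen over the integrin chain that it binds, was 1.86, 0.989 and 0.959 in siDNp63, against 1.55, 1.56 and 1.50 in siCTRL. Here siDNp63 replicate 1 lay above siCTRL and replicates 2 and 3 below it (log2 difference −0.35, exact permutation p = 0.4, adjusted p = 0.4). Without siDNp63 replicate 1 the difference was −0.66. On normalized counts in place of TPM, every siDNp63 library was below every siCTRL library, so the place of replicate 1 depended on the measure. The relative length assigned to *COL17A1* was 1.34 in siDNp63 replicate 1, against 1.69 in replicates 2 and 3, and its part in this was not tested.

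**Figure D4:**
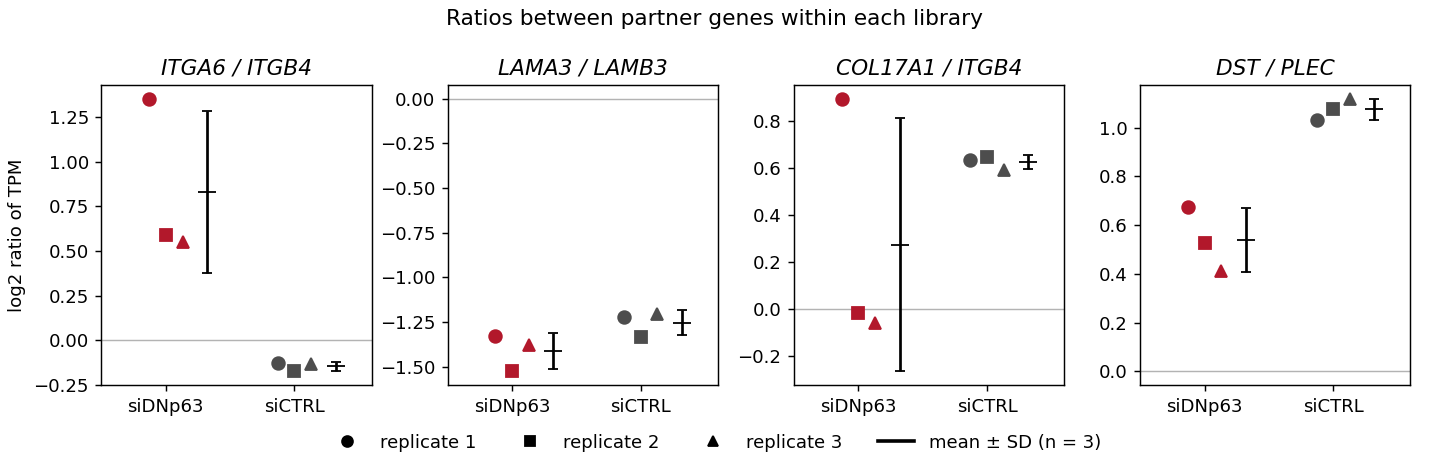
Log2 ratio of the TPM of 2 partner genes within each library (vertical axis, a scale of its own in each panel), siDNp63 in red on the left and siCTRL in grey on the right, with the mean ± SD (n = 3). The groups are apart for *ITGA6* over *ITGB4* (1.78 in siDNp63 and 0.904 in siCTRL as linear ratios) and for *DST* over *PLEC* (1.45 in siDNp63 and 2.11 in siCTRL).

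The other genes of this adhesion system were read from 5 lists, with genes of smallest p named. The counts of each list stand beside 18.4% of all genes tested called higher and 15.2% called lower. Of 22 tested genes of basement membrane ligands (laminin chains, type IV and VII collagens, nidogens, perlecan, agrin and the Fraser complex), 6 rose and 6 fell, with a median log2 fold change of −0.19 against −0.02 over all genes. *COL4A6* and *COL4A5* encode the α6 and α5 chains of type IV collagen, which assemble together in epithelial basement membranes. *COL4A6* had 59.6, 82.2 and 64.2 normalized counts in siDNp63, against 213, 202 and 195 in siCTRL. *COL4A5* had 9171, 8488 and 8889 in siDNp63, against 14418, 14719 and 14664 in siCTRL. Neither gene's groups overlapped, and the log2 fold changes were −1.56 (SE 0.15, edgeR adjusted p = 0.000180) and −0.72 (SE 0.04, edgeR adjusted p = 1.10e-05). On log2(TPM + 1) the value for *COL4A6*, a gene of low level, was −0.87. *LAMC1*, the γ1 chain of most other laminins, rose (0.47, edgeR adjusted p = 1.93e-05). *COL7A1*, the collagen of the anchoring fibrils that hold laminin-332 to the tissue beneath, and *FREM1*, of the Fraser complex, also passed both thresholds and are named after their values were seen. *COL7A1* had 1555 ± 358 normalized counts in siDNp63 and 4060.2 ± 157 in siCTRL (SD, n = 3 each), or −1.38 as log2 fold change (edgeR adjusted p = 0.000273). *FREM1* had 6.05 ± 3.55 in siDNp63 and 31.4 ± 4.30 in siCTRL, few counts in either group.

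Of 14 other receptors for laminin and matrix, 3 rose and 1 fell (median 0.06). *BCAM*, a receptor for the laminin α5 chain, fell, with 3581, 5369 and 5353 normalized counts in siDNp63, against 11873, 11348 and 11664 in siCTRL (log2 fold change −1.28, SE 0.14, edgeR adjusted p = 0.000333). Without siDNp63 replicate 1, its lowest library, the value for *BCAM* was −1.12. The integrin chains *ITGB5* (0.61), *ITGA2* (0.32) and *ITGB1* (0.28) rose, although the call for *ITGA2* was lost on log2(TPM + 0.1) (limma adjusted p = 0.0832). *ITGB1*, the β1 chain with which α6 can also pair, had 46917, 42352 and 42898 normalized counts in siDNp63, against 35578, 35959.8 and 37356 in siCTRL, without overlap. *ITGA3*, the α3 chain that binds laminin-332 with β1, had a log2 fold change of −0.12 (edgeR adjusted p = 0.313) and is named after its value was seen. The number of receptors that rose was 5 without siDNp63 replicate 1, 5 without siDNp63 replicate 2 and 5 with GC offsets.

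Of 11 keratins and other plakins, 7 rose and 1 fell (median 0.32). *PPL*, the plakin periplakin of desmosomes and the cornified envelope, rose furthest, with 2409.9, 2748 and 2765 normalized counts in siDNp63, against 934, 942 and 918 in siCTRL (log2 fold change 1.50, SE 0.06, edgeR adjusted p = 3.80e-06). *MACF1*, the plakin most like dystonin, rose by 0.32, although on log2(TPM + 0.1) its value was 0.10 (limma adjusted p = 0.333). The keratins *KRT16* (0.73) and *KRT6B* (0.52), of activated and hyperproliferative epithelium, rose as well. Without siDNp63 replicate 1 their values were 0.87 and 0.58. *KRT6A*, *KRT6B*, *KRT14*, *KRT16* and *KRT17* have near-identical copies with which reads can be shared, so their values are uncertain. *KRT15*, a keratin of basal cells and the member of the list that fell, is named after its values were seen (−0.37, edgeR adjusted p = 0.00379). The partner keratins of the hemidesmosome in basal cells were scarce in this line. *KRT5* stood at 4.12, 4.85 and 7.33 TPM in siDNp63, against 8.24, 6.10 and 6.92 TPM in siCTRL. *KRT14* stood at 1.59, 1.45 and 1.41 TPM in siDNp63, against 0.417, 0.374 and 0.780 TPM in siCTRL. On counts *KRT14* was called higher and passed both thresholds (log2 fold change 1.42, edgeR adjusted p = 0.0110). Its mean normalized counts were few, 41.3 in siDNp63 and 15.5 in siCTRL. *KRT5* was not called (−0.18, edgeR adjusted p = 0.423).

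Of 11 enzymes that process or shed these proteins, 2 rose and 4 fell (median −0.25). *ADAM9* and *ADAM17* encode membrane proteases known to release the ectodomain of type XVII collagen. *ADAM9* rose, with 21293, 18946 and 19926 normalized counts in siDNp63, against 11339.9, 11127 and 11656 in siCTRL (log2 fold change 0.82, SE 0.05, edgeR adjusted p = 1.54e-05). *ADAM17* rose by 0.27, a call lost on log2(TPM + 0.1) (limma adjusted p = 0.117). *MMP14* and *MMP2*, which can cleave laminin-332, fell by 0.41 and 0.25 on the log2 scale. The *MMP2* call was lost without siCTRL replicate 2 (−0.25, edgeR adjusted p = 0.0831) or siCTRL replicate 3 (−0.24, edgeR adjusted p = 0.0882), and on log2(TPM + 0.1) (−0.24, limma adjusted p = 0.309). The number of enzymes that fell was 4 with all libraries, 2 without siCTRL replicate 1, 1 without siCTRL replicate 2 and 1 without siCTRL replicate 3.

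Of 15 linkers of focal adhesions, actin-based junctions that also bind matrix through integrins, 6 rose and 4 fell (median 0.15). The kindlin genes moved in opposite directions. *FERMT1*, the kindlin of epithelia, had 3280.3, 3123 and 3047 normalized counts in siDNp63, against 6708, 6417 and 6448 in siCTRL. *FERMT2*, its widely expressed relative, had 3339, 3044 and 3216 in siDNp63, against 1650.05, 1568 and 1626 in siCTRL. The log2 fold changes were −1.05 for *FERMT1* (SE 0.04, edgeR adjusted p = 3.25e-06) and 0.99 for *FERMT2* (SE 0.05, edgeR adjusted p = 7.08e-06). *TLN2* (0.77), a talin, and *VCL* (0.35), vinculin, rose too. The 5 lists held 22, 14, 11, 11 and 15 tested genes. Over all of them 24 genes rose and 16 fell, at the threshold that called 18.4% of all genes higher and 15.2% lower.

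**Figure D5:**
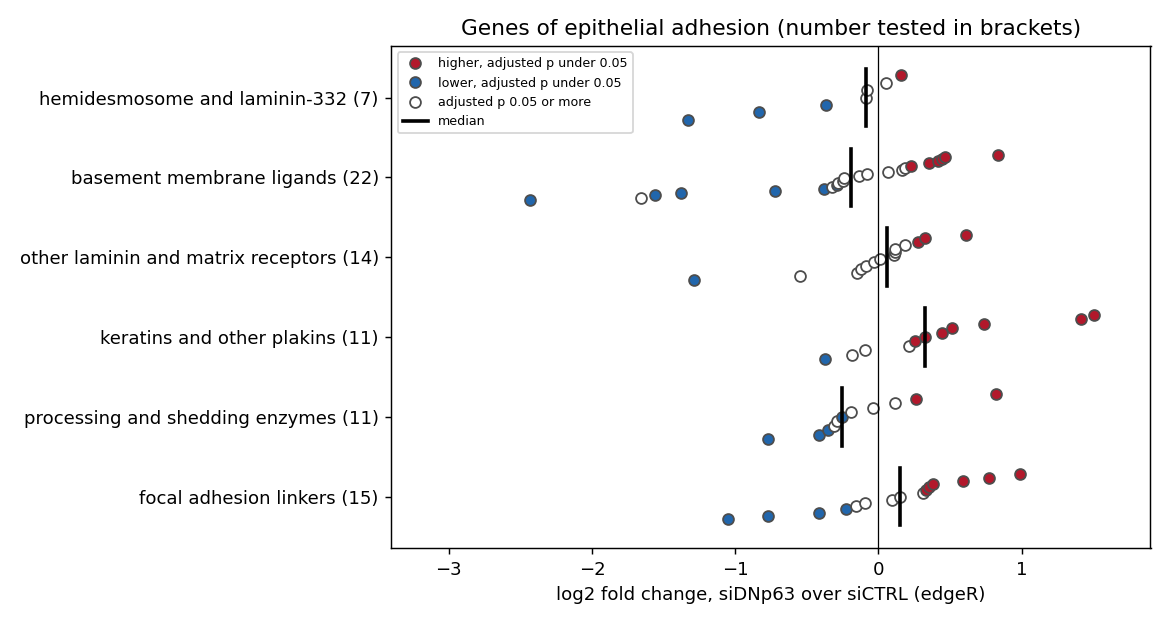
Log2 fold change of siDNp63 over siCTRL (horizontal axis, edgeR) for each tested gene of the 7 hemidesmosome and laminin-332 genes and of 5 further lists, with the number tested in brackets. Red is higher and blue lower at an adjusted p under 0.05, open circles did not pass, and black bars are medians, −0.09 in the top row and 0.32 for keratins and other plakins.

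The genes whose profile over the 6 libraries was most like that of *COL17A1*, by the root mean square difference of centred log2 normalized counts among 12769 candidates, were *MAP1A*, a microtubule-associated protein (0.0581), *SMO*, the Hedgehog signal transducer (0.0690), and *FHL2*, a LIM-domain protein (0.0780). Their log2 fold changes were −1.32, −1.21 and −1.20. The likeness rests on 6 libraries in 2 groups and is a description.

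Markers of other cell types were summed in TPM as a check of the cultures. The endothelial markers (4 genes) summed to 4.64 to 5.70 TPM in siDNp63 and 1.53 to 2.51 TPM in siCTRL, the leukocyte markers (6 genes) to 11.7 to 12.6 TPM in siDNp63 and 14.3 to 16.0 TPM in siCTRL, and the fibroblast markers (6 genes) to 4.62 to 8.11 TPM in siDNp63 and 7.47 to 9.54 TPM in siCTRL. Of those tested, 2 of 3 endothelial markers rose, 1 of 4 leukocyte markers fell and 1 of 2 fibroblast markers fell, and the markers given here were picked out with their values known. *PECAM1*, an adhesion molecule of endothelium and leukocytes, stood at 3.53, 3.72 and 2.50 TPM in siDNp63, against 0.687, 0.600 and 0.553 TPM in siCTRL (log2 fold change on counts 2.39, edgeR adjusted p = 2.40e-05). *VWF*, von Willebrand factor, rose by 0.88 (edgeR adjusted p = 0.00264). *CD14*, a monocyte receptor, and *DCN*, the proteoglycan decorin, fell by 1.26 and 1.32 on the log2 scale (edgeR adjusted p = 0.0329 and 0.0284). *COL1A1*, a chain of type I collagen, stood at 4.32 to 7.52 TPM in siDNp63 and 5.58 to 7.98 TPM in siCTRL. At or near 0 in all 6 libraries were *CDH5*, at most 0.0436 TPM in siDNp63 and 0.112 TPM in siCTRL, and *COL3A1*, *LUM* and *PDGFRB*, the last of which was listed at 0 throughout. The squamous epithelial markers (7 genes) summed to 5140.4 to 5425 TPM in siDNp63 and 4421 to 4477 TPM in siCTRL. Most of that sum was *KRT6A*, whose values are uncertain, at 3814, 3704 and 3565 TPM in siDNp63 and 3053, 3038 and 3123 TPM in siCTRL. Of these 7 markers 5 rose and 1 fell, the silenced *TP63*, against 18.4% of all genes tested higher and 15.2% lower. The part of these markers in the results was not tested.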

How the data were processed

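RNA was sequenced from SCC90 cells, 3 siDNp63 and 3 siCTRL libraries grouped by the labels. The submitters' processing notes name bcl2fastq 2.17.1.14, kallisto 0.46.2 and the build hg38. Which annotation release was used is not stated in the sources at hand. The authors deposited, per Ensembl gene, expected counts (estimates by kallisto, unscaled) and TPM values, which are scaled for length and have an equal total in each library.

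Expected counts were rounded, and filterByExpr of edgeR 4.0.16 with a minimum count of 10 left 17257 of 40488 genes. The main test was the quasi-likelihood test of edgeR after TMM scaling, with group as the only term (R 4.3.3) and Benjamini-Hochberg adjustment over all genes tested. Standard errors are the log2 fold change over the square root of F. The test was run on simulated counts that held no GC bias and no outlying library, so that check does not cover the features of siDNp63 replicate 1. Ratios of TPM were tested by exact two-sided permutation. Alternatives were DESeq2 1.42.0, limma 3.58.1 (limma-voom, and log2 TPM with pseudocounts of 0.1 or 1), library size alone, DESeq2 size factors, no filter, at least 10 counts in every library, an adjusted p under 0.005, a replicate block and leaving out each library. Offsets for transcript length and GC content were chosen after seeing the data.

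Coordinates and transcripts are from GENCODE on GRCh38, promoter windows from RefSeq on GRCh38.p14. The members and lists were chosen with earlier results of these data known. Named were all 7 members, *TP63*, up to 4 genes of smallest p per list, and the 3 genes nearest in profile to each member past both thresholds. Of these genes, 1 of a list is not reported here. Gene-level values cannot separate isoforms.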

Additional observations from a re-analysis of the deposited data

How the results depend on the processing

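Over 18 alternatives, *COL17A1* kept its direction and call, between −1.41 and −1.20, as did *TP63*, between −1.61 and −1.49. *ITGB4* stayed between −0.96 and −0.63 and *DST* between −0.56 and −0.28, with both calls lost at an adjusted p under 0.005 (−0.83 and −0.36). *ITGA6* was not called with library size alone (0.0712), on log2(TPM + 0.1) (0.0719), on log2(TPM + 1) (0.0715) or at 0.005 (0.16), and ranged between 0.12 and 0.19 when 1 library was left out. *LAMA3* was called with library size alone (−0.16) and GC offsets (−0.10). *LAMB3* ranged between −0.0233 and 0.18 when 1 library was left out. The number of members higher was 0 with library size alone, on both TPM scales and at 0.005, and between 0 and 2 when 1 library was left out, and the number lower was 1 at 0.005. The log2 difference of the *DST* to *PLEC* ratio was −0.25 on normalized counts and between −0.61 and −0.47 when 1 library was left out. The cause of these shifts was not tested, beyond the stricter threshold itself. Of 360 values for the 20 genes that the naming rule takes from the lists, 346 kept their call, 14 lost it and 0 changed sign. These genes were picked for small p in the main fit, and the alternatives reuse the same libraries. The kept calls are therefore no independent support.

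All genes called numbered 2626 lower and 3177 higher. They numbered 1137 and 1767 at 0.005, 4117 and 2330.0 with library size alone, 2285 and 1678 on log2(TPM + 0.1), and 2348 and 1668 on log2(TPM + 1). Same-numbered libraries did not deviate together (correlations of −0.004, 0.018 and 0.024), so the numbers were not taken as pairs. With the replicate block no member's call changed, *ITGA6* had an edgeR adjusted p = 0.0472 and *ITGB4* a value of −0.87, and 2175 genes were lower and 2777 higher. Of the 3 same-numbered pairs the paired ratios can give no p under 0.25. Every member had at least 2821 expected counts in every library. The widths of the intervals come from edgeR's estimate of variation, which also draws on other genes. They were not split into spread between libraries and counting error.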
